A study of Mus musculus with 6 samples.

Results

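The markers of formative and primed pluripotency described here are Otx2, Pou3f1, Lef1, Sall2, Etv4, Etv5, Zfp281, Tcf7l1 and Lin28a, genes that mark or take part in the exit of mouse embryonic stem cells from the naive state. They were chosen by name. The 10 names given for the set, which also held Oct6, came to 9 genes, because Oct6 is an older name of Pou3f1. All 9 genes had an entry in the table of nuclear RNA-seq values, which holds 20633 RefSeq transcript entries for 19338 gene symbols. The markers had 13 entries between them, and for each gene the entry with the highest base mean was kept.

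The study sequenced RNA of isolated nuclei. The cells were mouse embryonic stem cells of the genotype Rybp fl/fl;Yaf2-/-, in a group of 3 untreated samples (UNT) and a group of 3 samples exposed to 4-hydroxytamoxifen at 800 nM over 96 hr (OHT). RYBP and YAF2 are related subunits of variant Polycomb repressive complex 1, which places ubiquitin on histone H2A. Both groups carried the floxed Rybp alleles and lacked Yaf2, which had been deleted by CRISPR in a clonal line, and both were grown with serum and leukemia-inhibiting factor (LIF). Tamoxifen activates a Cre recombinase that deletes Rybp, and no group of treated cells without floxed Rybp was analysed here.

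The value used for each entry was the authors' base mean, the mean over all 6 libraries of read-pair counts normalized for library size. It is 1 pooled value per entry, so the levels below are those of UNT and OHT cells together, with no SD and no number of replicates. A difference between UNT and OHT was therefore not computed. Depth per library is unknown, and no test was run. Rybp had a base mean of 13983, above 99.3% of the entries with a base mean above 0, and its loss in the OHT libraries could not be checked from a pooled value. Yaf2 had a base mean of 3.24, above 11.4% of those entries.

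Naive embryonic stem cells resemble the epiblast before implantation, and primed cells resemble the epiblast after it, with the formative state lying between them. FGF signalling through ERK drives the exit from the naive state, while LIF and beta-catenin hold it back. OTX2 is a homeodomain factor that brings OCT4 to new enhancers during the exit, and POU3F1 is a POU factor of the epiblast after implantation and of early neural cells. TCF7L1 represses naive genes until beta-catenin relieves it, and LEF1 is an activating partner of beta-catenin. ETV4 and ETV5 are ETS factors of the PEA3 family whose genes respond to ERK. ZFP281 is a zinc finger factor that drives the passage to the primed state, SALL2 is a zinc finger factor of the spalt family, and LIN28A is an RNA-binding protein that blocks maturation of let-7 microRNAs.

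The 250 bases before a RefSeq start (GRCm38.p6, the assembly of mm10) were read. The sequences below lie outside annotated exons, in windows that end within 150 bp of the start of an entry. Every CpG is in capitals, and the sequences run 5′ to 3′ on the strand of the gene. They are shown for Zfp281, the highest marker per kb of span, and for Otx2, Lef1 and Sall2, the 3 lowest, which are also the genes with several entries. Zfp281 at chr1:136624651-136624900 (plus strand) had 19 CpGs. Otx2 at chr14:48667645-48667894 (minus strand), upstream of the start of its kept entry at 48667513, had 6 CpGs. Another Otx2 window, chr14:48667509-48667758, lies nearer to that start and had 8 CpGs. It is partly exonic and is not printed. Lef1 at chr3:131112541-131112790 (plus strand), before the start of its shorter entry, had 6 CpGs. The window at the start of the kept Lef1 entry, chr3:131110073-131110322, had 14 CpGs. That window overlaps an annotated exon and is not printed. The Sall2 proximal start at chr14:52316324-52316573 (minus strand) had 6 CpGs. The Sall2 distal start, of which the 158 bases outside annotated exons at chr14:52328763-52328920 (minus strand) are given, had 0 CpGs.
Zfp281: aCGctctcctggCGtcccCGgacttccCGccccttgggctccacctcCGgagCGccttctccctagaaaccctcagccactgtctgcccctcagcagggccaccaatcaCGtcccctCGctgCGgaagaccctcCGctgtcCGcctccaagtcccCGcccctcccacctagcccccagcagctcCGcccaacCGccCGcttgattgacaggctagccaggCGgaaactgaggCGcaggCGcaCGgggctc
Otx2: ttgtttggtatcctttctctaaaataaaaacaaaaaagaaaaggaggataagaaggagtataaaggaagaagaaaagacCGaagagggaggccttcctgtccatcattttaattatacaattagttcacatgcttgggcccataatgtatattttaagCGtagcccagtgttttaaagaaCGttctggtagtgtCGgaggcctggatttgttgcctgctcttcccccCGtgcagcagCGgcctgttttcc
Lef1: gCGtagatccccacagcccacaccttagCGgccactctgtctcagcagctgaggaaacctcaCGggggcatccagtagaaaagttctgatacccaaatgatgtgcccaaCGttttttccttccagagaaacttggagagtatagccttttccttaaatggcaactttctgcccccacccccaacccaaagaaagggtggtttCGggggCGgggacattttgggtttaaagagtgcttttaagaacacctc
Sall2 proximal: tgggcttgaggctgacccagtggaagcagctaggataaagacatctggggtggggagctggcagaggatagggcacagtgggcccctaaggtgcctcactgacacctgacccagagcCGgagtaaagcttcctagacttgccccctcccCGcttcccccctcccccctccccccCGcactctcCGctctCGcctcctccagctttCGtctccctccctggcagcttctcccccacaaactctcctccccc
Sall2 distal: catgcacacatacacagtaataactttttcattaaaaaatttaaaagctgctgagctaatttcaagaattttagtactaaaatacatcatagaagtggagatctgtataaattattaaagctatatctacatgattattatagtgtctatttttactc

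In all, 15 windows of 250 bases were found for 7 of the 9 markers, with none for Etv4 and Pou3f1. A window was counted as CpG-rich where its GC content was at least 50% and its ratio of observed to expected CpG was at least 0.6. By this count 4 of the 15 windows were CpG-rich, belonging to Zfp281, Etv5 and Tcf7l1, against 31.0% of 32851 windows for 27025 genes. By gene, 3 of the 7 had a CpG-rich window. Several windows belong to the same gene and some in Otx2 and Lef1 overlap, so the 15 are not independent. Tcf7l1 had a GC content of 73.6% with a CpG ratio of 0.862, and the start of the Etv5 entry had 71.2% with 0.898. Zfp281 had a GC content of 69.6% with a CpG ratio of 0.700. Lin28a, with a GC content of 61.2%, had a CpG ratio of 0.336 and was not CpG-rich. The Sall2 distal window was the poorest of the 15, with a GC content of 28% and 0 CpGs, while the Sall2 proximal window had a GC content of 64.4% and a CpG ratio of 0.251. Over all windows the median GC content was 52.4% and the median CpG ratio 0.374.

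Short motifs were searched on both strands of the 250 bases. The TATA box, searched as TATAAA, was found in 3 of the 15 windows against 12.4% of all windows. These windows were the Otx2 window printed above, that of the Sall2 distal start, and that of a Lef1 start that no entry uses. The other Otx2 windows, among them the nearest to the start of its kept entry, had no match. The motif of TCF and LEF factors, searched as CTTTGAT, was found in 0 of the 15 windows against 3.21% of all windows. The motif of ETS factors, searched as CCGGAAG, was found in 0 of the 15 windows against 6.91% of all windows. These are matches of letters only.

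Levels were compared between genes per kb. Base mean per kb of transcript span, introns included, was used first, since nuclear RNA holds unspliced transcripts, and base mean per kb of exons is given beside it. Pairs of entries of 1 gene with different base means were taken where the longer span held the shorter whole but had the shorter exonic length. The longer-span entry had the higher base mean in 179 of 191 pairs (93.7%). Where both base means were at least 10, it did in 164 of 173 (94.8%). In these pairs base mean thus followed span more often than exonic length. Where reads are counted over the span, the longer entry also holds the reads of the shorter. The pairs therefore bear on whether bases outside the exons were counted, and do not show that base mean grows in proportion to span. Otx2 is among these pairs. In bulk RNA a lower level per library cannot be told apart from fewer cells with the transcript.

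**Figure D1:**
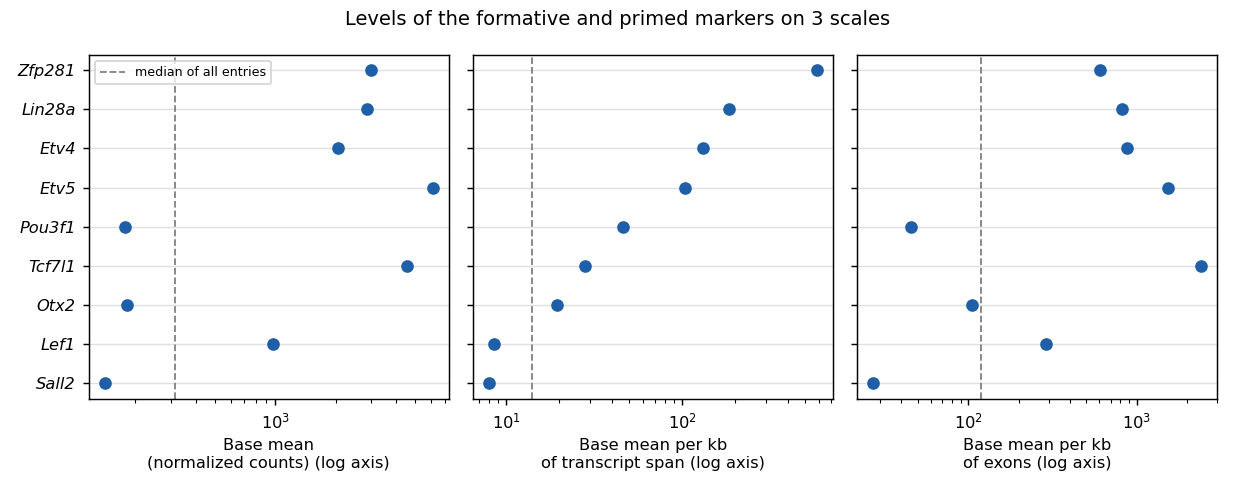
Levels of the 9 markers on 3 log axes: base mean (normalized counts), base mean per kb of transcript span and base mean per kb of exons. Each point is the authors' mean over the 6 libraries and the dashed line is the median of all entries with a base mean above 0. Tcf7l1 stands highest per kb of exons (2410) but sixth per kb of span (28.1).

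Per kb of span, Zfp281 stood highest at 581, above 98.7% of entries with a base mean above 0. Lin28a had 185 per kb of span (percentile 94.1), Etv4 had 132 (90.9) and Etv5 had 104 (87.9). Pou3f1 followed with 45.9 per kb of span (percentile 72.6) and Tcf7l1 with 28.1 (62.5). Otx2 had 19.3 per kb of span (percentile 55.1), Lef1 had 8.49 (42.6) and Sall2 had 8.01 (41.8). The median of all entries was 14.1 per kb of span, so 7 of the 9 markers stood above it and Lef1 and Sall2 below. Zfp281 was 72.6 times Sall2 on this scale. The place of Sall2 depended on the entry kept: its shorter entry had 25.3 per kb of span (percentile 60.2), above the median of all entries and above Lef1, and the mean over its entries stood at percentile 52.5. The steps between neighbours ran from 1.06 times (Lef1 over Sall2) to 3.14 times (Zfp281 over Lin28a), and with 1 pooled value per gene no neighbours in the order could be tested against each other.

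The order changed with the length used. Per kb of exons, Tcf7l1 stood highest at 2410 (percentile 97.5), followed by Etv5 at 1530 (94.4), Etv4 at 877 (87.8), Lin28a at 819 (86.7) and Zfp281 at 607 (81.5). Lef1 came next per kb of exons at 288 (percentile 66.2), then Otx2 at 106 (48.2), Pou3f1 at 45.9 (37.8) and Sall2 at 27.4 (32.6). Tcf7l1 was 88.1 times Sall2 on this scale. Introns made up 98.8% of the 161681 bp span of Tcf7l1 and 4.19% of the 5153 bp span of Zfp281. Pou3f1 has a single exon, so its level was 45.9 per kb on both scales. With the entry kept, Sall2 stood ninth on both scales and also by base mean, at 141.

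The remaining base means, with no division by length, were 6082 for Etv5, 4550 for Tcf7l1, 2995 for Zfp281, 2872 for Lin28a, 2049 for Etv4, 967 for Lef1, 181 for Otx2 and 176 for Pou3f1. By base mean the markers fell into 6 with 967 or more and 3 with 181 or less, the latter being Otx2, Pou3f1 and Sall2.

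**Figure D2:**
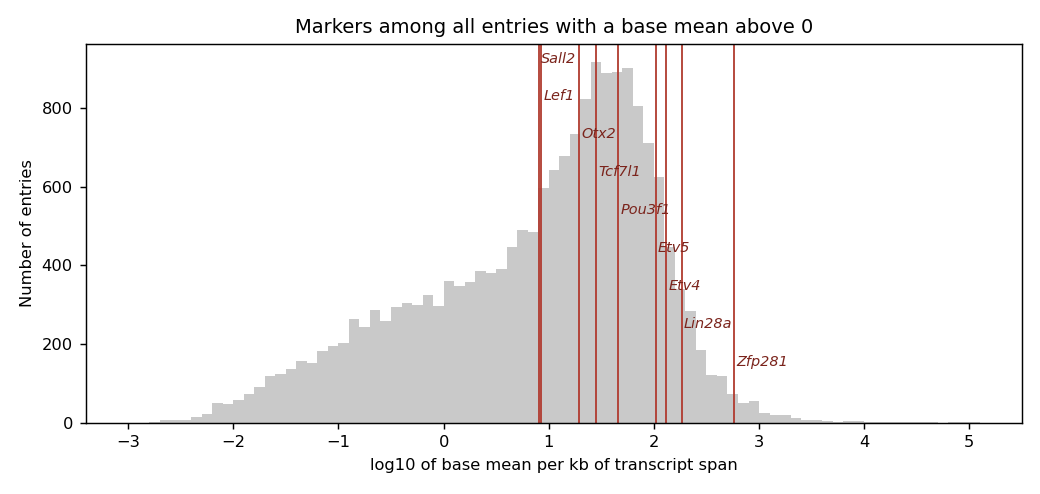
Distribution of the log10 of base mean per kb of transcript span over 18874 entries with a base mean above 0 and a transcript model (grey bars, number of entries), with the 9 markers as red lines. The lines run from Sall2 (8.01 per kb) to Zfp281 (581 per kb).

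Of the 9 markers, 4 lay in the top 25% of entries per kb of span and 5 in the top 25% per kb of exons. The 4 by span were Zfp281, Lin28a, Etv4 and Etv5. The fifth by exons was Tcf7l1. The median marker stood at percentile 72.6 by span and 81.5 by exons.

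Each marker maps as follows in mm10. Zfp281 lies at chr1:136624901-136630053 on the plus strand with 2 exons, Lin28a at chr4:134003330-134018841 on the minus strand with 4, and Etv4 at chr11:101769742-101785310 on the minus strand with 13. Etv5 lies at chr16:22381309-22439719 on the minus strand with 13 exons, Pou3f1 at chr4:124656807-124660655 on the plus strand with 1, and Tcf7l1 at chr6:72627272-72788952 on the minus strand with 13. Otx2 lies at chr14:48658171-48667513 on the minus strand with 5 exons, Lef1 at chr3:131110471-131224356 on the plus strand with 10, and Sall2 at chr14:52311177-52328762 on the minus strand with 2. Annotated genes overlap 4 of the spans: Tcf7l1 (6 genes, 14.2% of the span), Pou3f1 (Gm2164, on the opposite strand, 9.43%), Lin28a (Gm13061, on the opposite strand, 4.48%) and Lef1 (2 genes, 3.41%). Of these genes, 3 in Tcf7l1 and 1 in Lef1 lie on the strand of the marker, so strand could not separate their reads. Whether the counting used strand is not given in the sources used here, so reads of the genes on the opposite strand may not be separable either.

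Reads of 40 bases can also be shared with similar sequence elsewhere, or with another gene annotated at the same place. Of the 40-base stretches of the marker's exons, 35.3% in Lef1 and 29.7% in Etv5 were also found in transcripts of other genes, against 7.66% in Pou3f1, 1.93% in Lin28a and 0.270% in Tcf7l1. None of the stretches of Zfp281, Etv4, Otx2 and Sall2 were. For Etv5 the shared gene was Gm4798, annotated as a processed pseudogene. For Lef1 there were 16 sharing genes, among them Gm43352, which overlaps the Lef1 span. In Pou3f1, Lin28a and Tcf7l1 the only sharing gene was Gm2164, Gm13061 and Gm15401, respectively. Each of these overlaps the span of its marker, so this sharing need not lie elsewhere in the genome. Introns, which were not searched, make up 93.2% of the Etv5 span and 97.0% of the Lef1 span, and the share of their reads that this touches is unknown, so the levels of both genes are uncertain.

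Otx2, Lef1 and Sall2 each had several entries, and pairs in which the longer entry held the shorter, to within 10 bp at either end, were compared. In Otx2 the longest entry (NM_001286481) had a base mean of 181 over 9343 bp and the shortest (NM_144841) had 153 over 4702 bp, and the third entry (NM_001286483), which reaches past the end of both, had 168 over 7428 bp. The 4641 bp found only in the longer entry held 27.5 of the base mean, or 5.93 per kb, and the shorter entry held 32.6 per kb, 5.49 times as much. In Sall2 the longer entry (NM_015772) had a base mean of 141 over 17586 bp and the shorter (NM_001244916), from the proximal start, had 130 over 5152 bp. The 12434 bp upstream held 10.6 of the base mean, or 0.851 per kb, and the shorter entry held 25.3 per kb, 29.7 times as much. In Lef1 the 2326 bp found only in the longer entry (NM_001276402) held 22.7 per kb, 2.76 times the 8.20 per kb of the shorter entry (NM_001276403). The stretches that the longer entries add thus lay below the rest of the gene in Otx2 and Sall2 and above it in Lef1. The entries differ in exon content. Introns make up 7.36% of the shorter Sall2 entry and 70.7% of the longer, and 63.1% and 81.7% in Otx2. Whether exon content or the start used bears on these gaps was not tested.

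**Figure D3:**
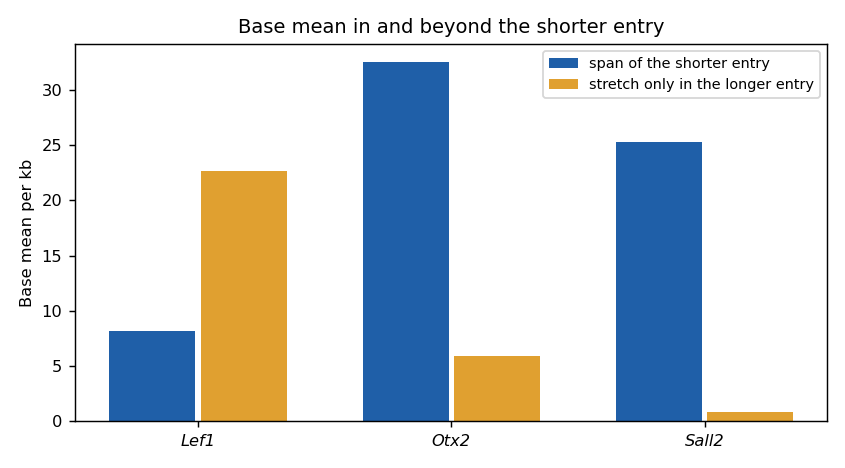
Base mean per kb of span in the shorter entry (blue) and in the stretch found only in the longer entry (orange) for Lef1, Otx2 and Sall2, 1 bar per stretch, from the authors' pooled means. The orange bar is the lower in Otx2 (5.93 against 32.6) and Sall2 (0.851 against 25.3) and the higher in Lef1 (22.7 against 8.20).

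Each marker was then set beside its family. Per kb of span Otx2 (19.3) stood 26.2 times above Otx1 (0.739), a homeobox gene of the anterior brain, and also above Crx (0.0633), a homeobox gene of the retina. Pou3f1 (45.9) stood 44.5 times above Pou3f3 (1.03) and also above Pou3f4 (0.933) and Pou3f2 (0.213), which are POU factors of the nervous system. These relatives had few reads, with base means of 5.06 for Otx1, 0.887 for Crx, 7.63 for Pou3f3, 2.73 for Pou3f4 and 1.19 for Pou3f2, so the size of the ratios is uncertain and none is given for Crx, Pou3f4 and Pou3f2. Both markers were thus the highest of their families on both length scales.

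Sall2 was not the highest of the spalt genes. Per kb of span it was exceeded 33.5 times by Sall4 (268), a pluripotency factor, and 23.5 times by Sall1 (188), and it was 1.79 times Sall3 (4.47). Its shorter entry, at 25.3 per kb of span, was also below Sall4 and Sall1. In the TCF and LEF family, Tcf7 (28.8) and Tcf7l1 (28.1) were nearly equal per kb of span, but per kb of exons Tcf7l1 was 6.85 times Tcf7. With the entry kept, Lef1 was the lowest of the 4 genes of this family on both scales, at 8.49 per kb of span and 288 per kb of exons. Its shorter entry had 398 per kb of exons, above Tcf7 at 352, so its place on that scale depended on the entry.

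In the PEA3 family, Etv4 exceeded Etv5 1.26 times per kb of span, and Etv5 exceeded Etv4 1.75 times per kb of exons. Both exceeded Etv1 (19.1 per kb of span), Etv4 by 6.90 times and Etv5 by 5.46 times. Lin28a exceeded Lin28b 6.40 times per kb of span, 1.63 times per kb of exons and 1.06 times by base mean. Zfp281 exceeded its relative Zfp148 11.4 times per kb of span but was 0.943 times its level per kb of exons. The choice of length thus decided which was the higher for Tcf7l1 and Tcf7, for Etv4 and Etv5, and for Zfp281 and Zfp148.

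**Figure D4:**
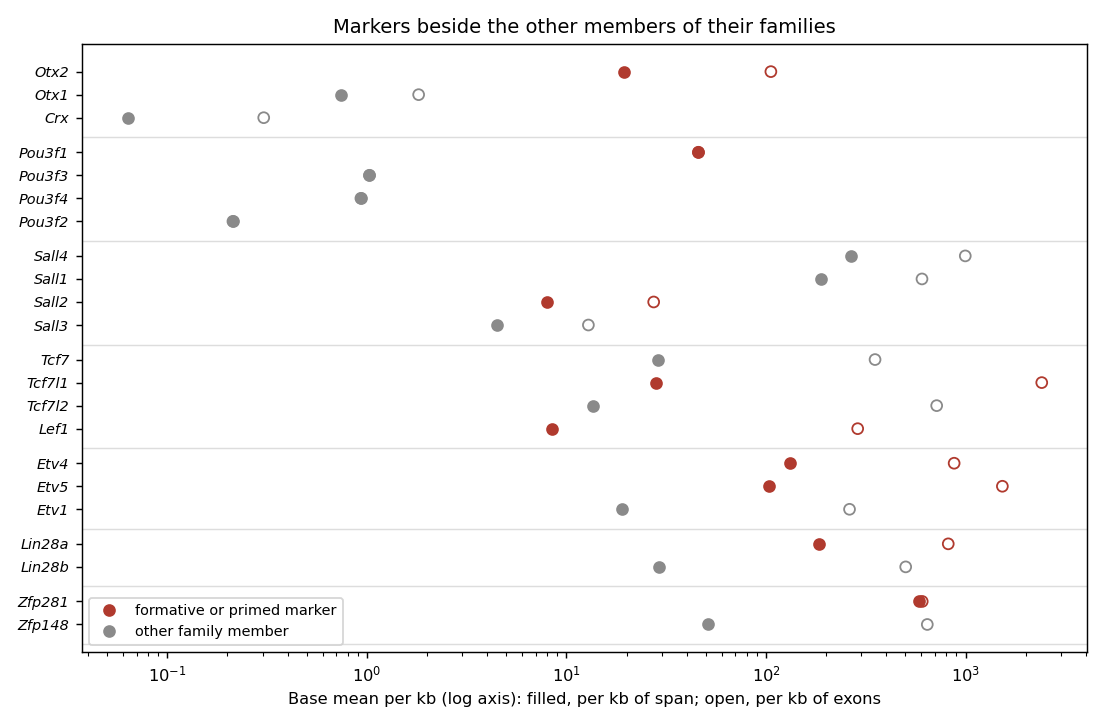
Base mean per kb on a log axis for the markers (red) and the other members of their families (grey), per kb of span (filled) and per kb of exons (open), 1 pooled value each. Otx2 and Pou3f1 lie to the right of their relatives, and Sall2 lies to the left of Sall4 (268) and Sall1 (188) per kb of span.

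Per kb, the median of the markers lay below those of the naive and the general pluripotency genes, with overlapping ranges. The median of the 9 markers was 45.9 per kb of span, against 153 for 15 naive genes, from Fgf4 (951) and Klf2 (595) down to Nr5a2 (52.1) and Prdm14 (22.1). Of the naive list Dppa3 had no entry, and 14 of the 15 measured lay in the top 25% of entries. The median of 9 general pluripotency genes was 360 per kb of span, from Tdgf1 (2181) and Sox2 (1951) down to Dppa2 (83.7) and Foxd3 (27.0), with 8 of 9 in the top 25%. The difference of medians on the log2(level per kb of span + 1) scale was -1.72 against the naive list and -2.95 against the general list. Per kb of exons the differences were -0.21 and -0.72, and the former is within the 1.5-fold taken as a tolerance. With no length, the order was not the same: the median percentile of the base mean was 83.2 for the markers, 83.8 for the naive list and 80.1 for the general list. The lists were chosen with earlier results of these data known, and the ordering is a description.

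Genes from the same pathways as the markers were also counted. For 11 other formative and primed genes the median was 11.3 per kb of span, below the median of all entries, with 3 of 11 in the top 25%. Dnmt3b, a DNA methyltransferase, was highest at 77.4 and Tead2, a Hippo pathway factor, followed at 58.3, while Sox3 had 5.50 and Fgf5, a ligand of the formative epiblast, had 1.14. For 7 beta-catenin pathway genes, which bear on Tcf7l1 and Lef1, the median was 69.8 per kb of span with 4 in the top 25%. Ctnnb1, which encodes beta-catenin, was highest at 461 and Axin2, a target of the pathway, lowest at 6.93, with Tle4 at 128 and Gsk3b at 42.1. For 6 FGF and ERK genes, which bear on Etv4 and Etv5, the median was 281 per kb of span with 4 in the top 25%, from Spry2 (391) and Egr1 (359) down to Fgfr1 (44.0) and Fgfr2 (12.4). Per kb of exons the median of the FGF and ERK genes was 542, below the 607 of the markers, with 5 in the top 25%. On that scale the beta-catenin genes had a median of 881 with 6 in the top 25%, and the other formative genes 99.6 with 3.

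**Figure D5:**
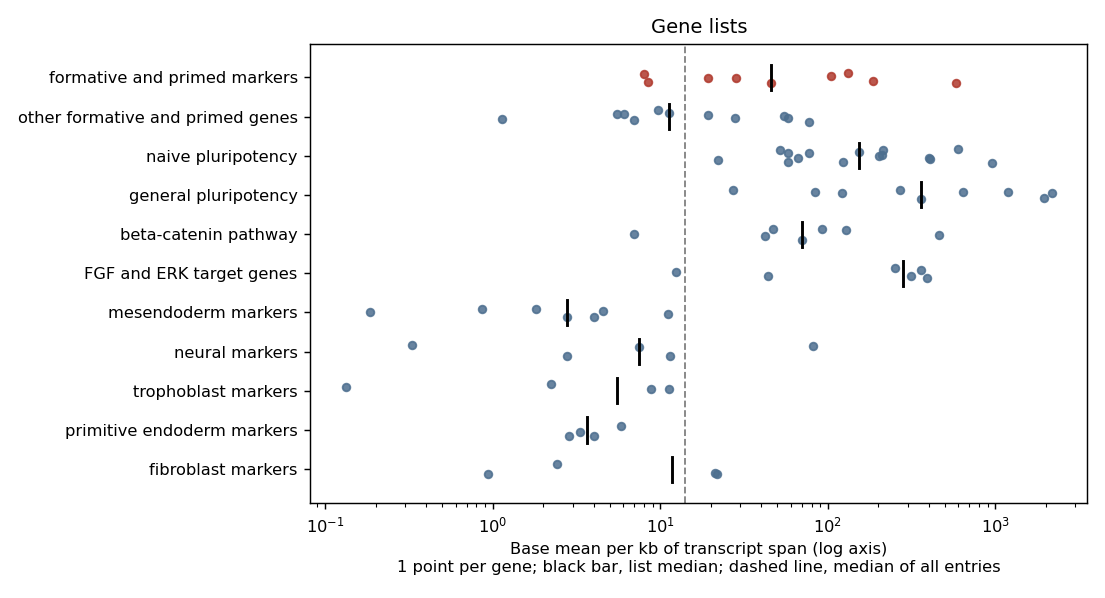
Base mean per kb of transcript span on a log axis for 11 gene lists, 1 point per gene and a black bar at each list's median, with the median of all entries dashed (14.1). The red markers spread from 8.01 to 581, with a median of 45.9 between those of the other formative genes (11.3) and the naive genes (153).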

How the data were processed

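The 6 libraries were nuclear RNA of Rybp fl/fl;Yaf2-/- cells, 3 UNT and 3 OHT, depleted of rRNA, prepared with a directional kit and read from both ends for 40 bp. The authors removed rRNA reads with Bowtie2, used STAR for alignment to mm10 and Bowtie2 for what STAR left unmapped, and took read-pair counts over filtered refGene entries with a custom script before running DESeq2. Of the deposited table only the base mean was used, a signal that the authors computed as the mean over all libraries of normalized counts. The 6 columns of the authors' own comparison hold fold changes, standard errors, test statistics, p-values and a threshold flag, and were not used. The planned count test of OHT against UNT was not run because the table has no values per library, and depth per library, and so the precision of each value, is unknown.

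Of 20633 entries, 20450 were matched to a symbol by the RefSeq GRCm38.p6 gene table and 20560 with GENCODE vM21 added, which also gave spans and exons. Base mean was above 0 in 19198 entries, of which 18874 had a transcript model and served as the reference for percentiles. An entry was taken as nested where the longer entry reached its start and its end, or fell short of them by at most 10 bp. Promoter windows came from RefSeq, and a window was assigned to an entry starting within 150 bp. For 5704 of 5928 starts shared with a GENCODE transcript, the 50 bases after the start were the same. Exon stretches of 40 bases were searched in 141767 transcripts. Python 3.11.15, numpy 2.4.6, pandas 2.3.3 and matplotlib 3.10.9 were used, and the script that counts pairs of entries was checked on simulated data.

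The genes named are every marker, the other members of their families, the highest 2 and lowest 2 of each list by level per kb of span, and Rybp and Yaf2, except 1 gene that is not reported here. The markers and lists were chosen with earlier results of these data known. Alternatives were exonic length, no length, other entries per gene, other references and pseudocounts of 0.1 and 10 in place of 1. Addition of the shortest entry per gene as an alternative came after the data were seen.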

Additional observations from a re-analysis of the deposited data

How the results depend on the processing

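With exonic length in place of span, the percentile of the median marker went from 72.6 to 81.5, with no length to 83.2, and with only reference entries of base mean at least 10 to 66.5. In the last of these settings Otx2 went from percentile 55.1 to 45.2. The difference of medians on the log2 scale went from -1.72 to -0.21 against the naive list and from -2.95 to -0.72 against the general list with exonic length. With no length, the median percentile of the base mean was 83.2 for the markers against 83.8 for the naive list and 80.1 for the general list, so the direction against the general list turned. Pseudocounts of 0.1 and 10 gave -1.74 and -1.55 against the naive list and -2.97 and -2.73 against the general list. The number of markers in the top 25% was 4, or 5 with exonic length and with no length. With the shortest entry per gene, chosen after seeing the data, Otx2 moved from percentile 55.1 to 65.5 and Sall2 from 41.8 to 60.2, and with the mean over entries Sall2 moved to 52.5. No paired analysis was possible because base means are pooled over the libraries. For the same reason another normalization, a count filter, and leaving out each library in turn could not be run for OHT against UNT.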

Other observations

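By their medians, the lists of lineage markers stood lower than the formative and primed markers. Single genes overlapped: per kb of span Nes, Col1a1 and Thy1 stood above Otx2 (19.3). The fibroblast median was also slightly above that of the other formative and primed genes (11.3). For 7 mesendoderm genes the median was 2.79 per kb of span, with Eomes highest at 11.2 and Mixl1 next at 4.53, while Mesp1 had 0.869 and Gsc, a homeobox gene of the organizer, had 0.185. For 5 neural genes the median was 7.49, with Nes, an intermediate filament gene, at 82.0, Sox1 at 11.5 and Neurog1 at 2.79. For 4 trophoblast genes the median was 5.52, with Cdx2 at 11.4, Hand1 at 8.82, Gata3 at 2.22 and Elf5 at 0.133. For 4 primitive endoderm genes the median was 3.67, with Gata4 at 5.80, Gata6 at 4.00, Sox7 at 3.34 and Pdgfra at 2.84. For 4 fibroblast genes the median was 11.8, with Col1a1 at 22.0, Thy1 at 21.3, Col1a2 at 2.41 and Twist2 at 0.936. Among these 24 genes, Nes was the 1 in the top 25% of entries. These are pooled means over UNT and OHT libraries, with no test.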
